A study of Mus musculus with 8 samples.

Results

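The members are the genes of the glucuronosyltransferases (symbols that begin with Ugt and a digit) and of the cytosolic sulfotransferases (symbols that begin with Sult and a digit). They were chosen by symbol alone, which gave 49 of the 34945 named genes in the table: 22 Ugt genes and 27 Sult genes, 6 of the latter being pseudogenes. Of the 49, 19 were listed at 0 in every library and 12 were above 0 but too low to test. The other 18 had a mean of at least 10 over the 8 libraries and were tested.

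The study silenced Casp8, which encodes a caspase that starts cell death downstream of death receptors, in AML12 cells and asked which secreted genes change. AML12 is an established hepatocyte line whose donor mouse was transgenic for human TGF-alpha, so both groups carry the transgene. Poly-A RNA was sequenced from 4 libraries that received a scrambled control siRNA (Scr, genotype label WT) and 4 that received Casp8 siRNAs (siCasp8), each at 40 nM and for 48 h. The series' design text calls the 4 libraries of a group biological replicates. Values are normalized levels per gene as deposited, in the authors' unit, and are called levels here.

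Both enzyme families make lipid-soluble molecules soluble so that they can leave the body, and the liver is a main site of this work. Glucuronosyltransferases sit in the endoplasmic reticulum and transfer glucuronic acid from UDP-glucuronate to bilirubin, steroids, bile acids, phenols and drugs. Sulfotransferases work in the cytosol and transfer sulfate from the donor PAPS to phenols, catecholamines, steroids and thyroid hormones.

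The Ugt1a genes are 1 locus on the plus strand of chromosome 1 (GRCm38, chr1:88055388-88220002, 164.6 kb) in which each gene has a first exon of its own. In the GENCODE annotation, 9 of 9 Ugt1a genes ended in the same coding exons 2 to 5, at chr1:88215044-88215175, chr1:88215795-88215882, chr1:88216138-88216357 and chr1:88218127-88218421. These hold 132, 88, 220 and 295 coding bases, 735 together, which is between 45.8% and 46.4% of the coding sequence of each gene. The first exon holds the other 849 to 870 coding bases and gives each enzyme the end that binds its substrate. The join of the exons is shown because each first exon meets the same exon 2 there: the last 30 coding bases of the first exon are in lower case, and the first 30 bases of the shared exon 2 are in capitals.
Ugt1a1: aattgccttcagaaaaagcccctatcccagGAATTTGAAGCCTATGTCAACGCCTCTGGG
Ugt1a2: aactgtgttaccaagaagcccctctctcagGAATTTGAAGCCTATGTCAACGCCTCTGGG
Ugt1a6a: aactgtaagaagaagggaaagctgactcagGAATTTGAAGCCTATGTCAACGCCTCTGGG
Ugt1a6b: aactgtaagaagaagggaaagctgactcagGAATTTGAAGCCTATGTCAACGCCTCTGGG
Ugt1a7c: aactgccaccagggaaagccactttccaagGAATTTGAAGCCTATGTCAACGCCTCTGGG
Ugt1a9: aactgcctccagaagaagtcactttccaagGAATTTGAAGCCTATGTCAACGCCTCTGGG

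Ugt1a6a and Ugt1a6b have the same letters on both sides of this join. Their first exons were 97.0% identical, with 26 differences in 858 bases, and coding positions 296 to 355, counted from the A of the start codon, hold 9 of them. These 9 are among the bases that can separate the pair, and the differing letters are in capitals.
Ugt1a6a: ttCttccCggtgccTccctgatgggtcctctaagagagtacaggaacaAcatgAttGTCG
Ugt1a6b: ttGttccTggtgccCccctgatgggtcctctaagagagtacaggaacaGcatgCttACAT

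Over the 28 pairs of first exons of the 8 Ugt1a genes with a level above 0, identity ran from 55.1% to 97.0% with a median of 58.0%. How far a level can be assigned to 1 Ugt1a gene was read from 31-base words, the share of a gene's words that no other annotated gene holds. In the first exon that share was 100% in Ugt1a1, 86.9% in Ugt1a2, 91.4% in Ugt1a7c and 79.0% in Ugt1a9. It was 40.8% in Ugt1a6b. In Ugt1a6a it was 0%, because GENCODE places a transcript that starts with the first coding exon of Ugt1a6a (chr1:88138474-88139331) under Ugt1a7c, and 40.8% when that transcript was left out. Over the whole transcripts of the Ugt1a genes the share was between 15.8% and 47.0%. The annotation and word length that the authors used are not given in the sources used here, so the split between Ugt1a6a, Ugt1a6b and Ugt1a7c is uncertain.

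Depth was estimated at 30.7 to 51.8 M reads in the Scr libraries and 50.3 to 56.9 M reads in the siCasp8 libraries, and its part in the results was not tested beyond a fit with depth as a covariate. Casp8 itself was 3936, 3995, 4134 and 3825 in Scr replicates 1 to 4 and 1374, 1431, 1627 and 1490 in siCasp8 replicates 1 to 4. The mean fell from 3972 ± 129 to 1480 ± 108 (SD, n = 4 each), which left 37.3% of the control level (exact two-sided permutation test, p = 0.0286, the smallest that the 70 arrangements can give). Over all 14154 tested genes, limma's moderated test with Benjamini-Hochberg adjustment called 2739 genes higher and 2950 lower in siCasp8 libraries. That is 40.2% of genes called in either direction, 19.4% higher and 20.8% lower, and the median log2 fold change was 0.0025. Rescaling to a common upper quartile moved that median to 0.10 and the split to 4471 higher and 1665 lower.

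Of the 18 tested members, 14 rose and none fell. By the same limma test, no member was lower at an unadjusted p under 0.05 either (0 of 18). The median log2 fold change of the 18 was 0.94, with a range of -0.21 to 2.08. The 14 were 10 of 11 tested Ugt genes and 4 of 7 tested Sult genes, and the largest adjusted p among them was 0.0176. In 13 of the 18, every siCasp8 library was above every Scr library, against 18.0% of all tested genes, and in the other 5 the groups overlapped. By at least 0.5 on the log2 scale 13 rose, against 5.42% of all tested genes. The 18 passed a filter on the mean over all 8 libraries, so these counts leave out the members that were low on that mean. Ugt1a10 and Ugt3a1 were left out in this way, although their siCasp8 means were above 10. Ugt1a2, counted among the 14, had a Scr mean under 10 and passed only through its siCasp8 level.

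**Figure D1:**
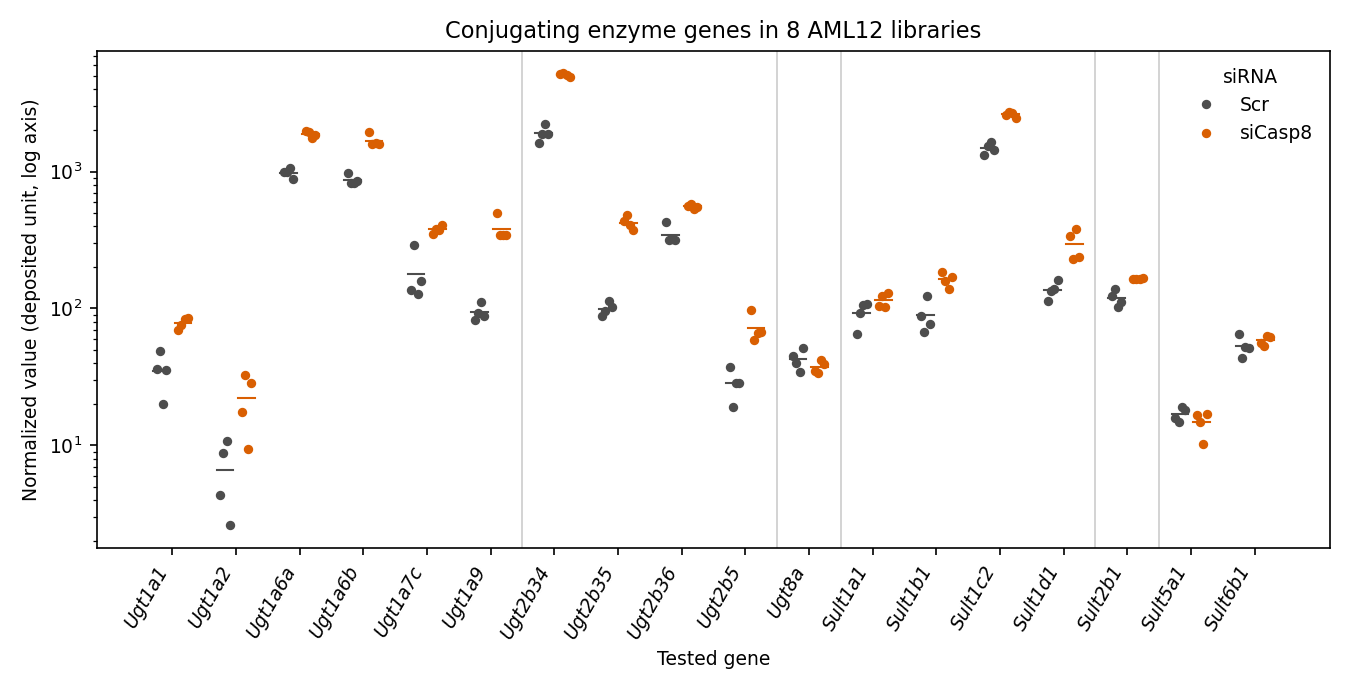
Normalized level, in the deposited unit on a log axis, of the 18 tested members in 4 Scr (grey) and 4 siCasp8 (orange) libraries of AML12 cells. Points are libraries, horizontal bars are group means, and grey vertical lines separate the Ugt1a, Ugt2, other Ugt, Sult1, Sult2 and other Sult genes; in 13 genes every orange point lies above every grey point.

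The Ugt1a, Ugt2 and Sult genes differed in how many moved and in median size, with ranges that overlapped. All 6 tested Ugt1a genes rose, with log2 fold changes from 0.94 to 2.00 and a median of 1.18. All 4 tested Ugt2 genes rose, from 0.70 to 2.08 with a median of 1.37. Of the 7 tested Sult genes, from all Sult families together, 4 rose, and the 7 ran from -0.21 to 1.09 with a median of 0.47. The levels of all Ugt1a genes summed to 2232, 2252, 2165 and 2042 in Scr replicates 1 to 4 and to 4874, 4385, 4190 and 4323 in siCasp8 replicates 1 to 4, a 2.04-fold higher mean. The Ugt2 levels summed to 2193, 2340, 2714 and 2351 in Scr libraries and 6275, 6378, 6075 and 5915 in siCasp8 libraries, 2.57-fold higher. The Sult levels summed to 1805, 2020, 2196 and 1978 in Scr libraries and 3463, 3487, 3555 and 3262 in siCasp8 libraries, 1.72-fold higher. None of the 3 sums overlapped between the groups. The sums and medians are descriptions of genes chosen with these results known, and the differences between the 3 groups of genes were not tested.

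**Figure D2:**
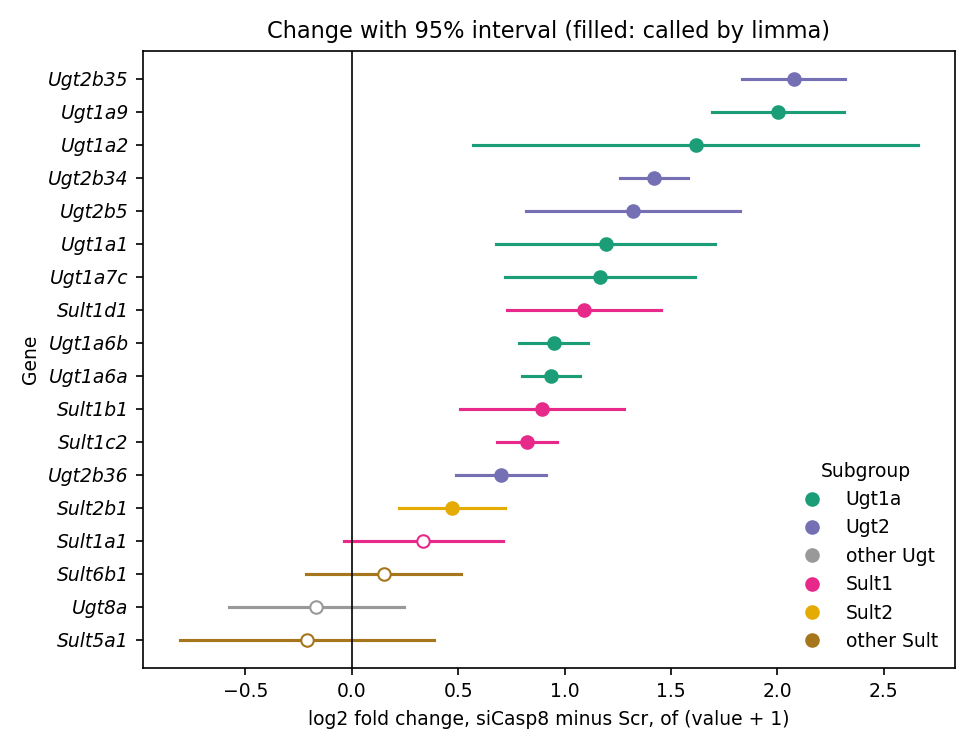
Log2 fold change (siCasp8 minus Scr, on log2 of the level plus 1) of the 18 tested members with its 95% confidence interval from limma, ordered by size and coloured by group of genes, with filled points for called genes. The largest values are those of Ugt2b35 at 2.08 and Ugt1a9 at 2.00, and the 4 genes not called lie between -0.21 and 0.34.

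Among the Ugt1a genes, the 2 Ugt1a6 copies held most of the level. They are known for the glucuronidation of small planar phenols and as targets of the aryl hydrocarbon receptor. Ugt1a6a (chr1:88134809-88218997) was 994, 988, 1063 and 882 in Scr libraries and 1988, 1934, 1750 and 1844 in siCasp8 libraries. It rose from 982 ± 74.7 to 1879 ± 105 (log2 fold change 0.94, SE 0.0627, adjusted p = 3.22e-07). Ugt1a6b (chr1:88103252-88219003) was 979, 819, 831 and 856 in Scr libraries and 1931, 1593, 1613 and 1599 in siCasp8 libraries. It rose from 872 ± 73.6 to 1684 ± 165 (0.95, SE 0.0752, adjusted p = 1.23e-06). In neither copy did the groups overlap, and siCasp8 replicate 1 was the highest library of each. Since their shared letters leave the split uncertain, the sum of both is also given: it was 1.92-fold higher in siCasp8 libraries, 3563 ± 247 against 1854 ± 102.

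Ugt1a9 (chr1:88070800-88218997), an enzyme for phenols and many drugs, had the largest change of the locus. It was 82.0, 92.9, 111 and 88.8 in Scr libraries and 501, 342, 345 and 342 in siCasp8 libraries. Every siCasp8 library was thus well above every Scr library, and replicate 1 stood above the other 3 of its group. The level rose from 93.8 ± 12.6 to 382 ± 78.8, 4.08-fold (log2 fold change 2.00, SE 0.143, adjusted p = 5.09e-07), rank 53 of the 14154 genes by log2 fold change.

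Ugt1a1 (chr1:88211959-88218997) encodes the enzyme that conjugates bilirubin. It was 36.0, 48.7, 20.1 and 35.7 in Scr libraries and 69.4, 75.2, 83.8 and 84.7 in siCasp8 libraries, without overlap. It rose from 35.1 ± 11.7 to 78.3 ± 7.32 (1.19, SE 0.237, adjusted p = 0.00155) but remained a small part of the locus. Ugt1a7c (chr1:88095062-88220002) was 136, 290.1, 128 and 158 in Scr libraries and 349.6, 383, 377 and 409 in siCasp8 libraries. Scr replicate 2 lay apart from the other controls but still below every siCasp8 library, and the mean rose from 178 ± 75.7 to 379.8 ± 24.5 (1.17, SE 0.205, adjusted p = 6.63e-04). Ugt1a2 (chr1:88200601-88218997) was the 1 risen member whose groups overlapped: 4.32, 8.85, 10.7 and 2.61 in Scr libraries and 17.6, 32.9, 9.41 and 28.8 in siCasp8 libraries. Its Scr mean of 6.61 ± 3.77 was under the filter of 10, so it was tested only through its siCasp8 level of 22.2 ± 10.7 (1.62, SE 0.480, adjusted p = 0.0176). The call on Ugt1a2 was lost without siCasp8 replicate 2 (adjusted p = 0.0638), without siCasp8 replicate 4 (0.0576) and with depth as a covariate (0.0873).

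The other 3 Ugt1a genes were not tested. Ugt1a10 (chr1:88055388-88219004) was listed at 0 in 3 Scr libraries and at 13.3 in replicate 4, and was 15.3, 19.0, 13.2 and 14.8 in siCasp8 libraries. Its first exon was 91.2% identical to that of Ugt1a9, and 55.6% of the words of that exon were its own. Ugt1a8 did not exceed 5.22 in any library, and Ugt1a5 was listed at 0 in all.

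As shares of the summed Ugt1a level, the 2 Ugt1a6 copies together made up 85.3% ± 3.66 in Scr libraries and 80.2% ± 0.367 in siCasp8 libraries, with groups that overlapped. Ugt1a9 made up 3.67% to 5.14% of the sum in Scr libraries and 7.80% to 10.3% in siCasp8 libraries, with no overlap. The share of Ugt1a7c was 8.17% ± 3.25 and 8.59% ± 0.995, and that of Ugt1a1 was 1.61% ± 0.511 and 1.77% ± 0.266. The shares add up to a fixed total, so they are not independent of each other, and they were not tested.

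**Figure D3:**
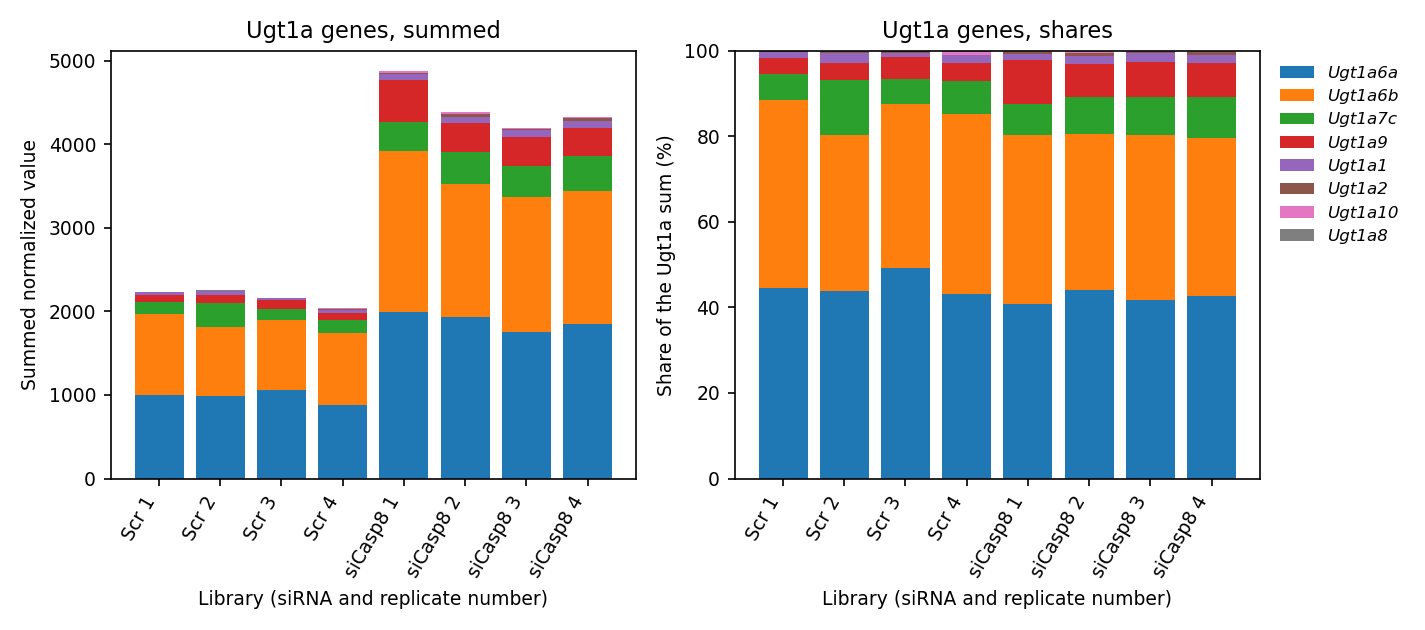
Summed normalized level of the 9 Ugt1a genes per library, in the deposited unit from 0, and the share in percent of that sum held by its genes, in 4 Scr and 4 siCasp8 libraries. The sum runs from 2042 to 2252 in Scr and from 4190 to 4874 in siCasp8 libraries, and Ugt1a9 holds at most 5.14% of it in Scr and at least 7.80% in siCasp8 libraries.

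The Ugt2 genes lie together on chromosome 5. Enzymes of this family are known for glucuronidating steroid hormones, bile acids and drugs, and each gene carries its full set of exons rather than a shared end, apart from the Ugt2a1 and Ugt2a2 pair. Ugt2b34 (chr5:86889767-86906937, minus strand) had the highest level of all members before any correction for length. It was 1629, 1888, 2232 and 1893 in Scr libraries and 5161, 5219, 5045 and 4907 in siCasp8 libraries. It rose 2.66-fold, from 1910 ± 247 to 5083 ± 138 (log2 fold change 1.42, SE 0.0740, adjusted p = 5.26e-08), with no overlap and a narrow spread among the siCasp8 libraries.

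Ugt2b35 (chr5:87000860-87013275, plus strand) had the largest log2 fold change of the 18. It was 87.8, 95.8, 114 and 102 in Scr libraries and 433, 483, 409 and 372 in siCasp8 libraries. The groups were far apart, and the mean rose 4.25-fold, from 99.9 ± 11.0 to 424 ± 46.2 (2.08, SE 0.112, adjusted p = 6.06e-08), rank 48 of the 14154 genes. Ugt2b36 (chr5:87065927-87092555, minus strand) had the smallest log2 fold change of the 10 risen Ugt genes. It was 426, 317, 322 and 315 in Scr libraries and 563, 583, 534 and 550.0 in siCasp8 libraries. Scr replicate 1 lay above the other 3 controls but below every siCasp8 library, and the mean rose from 345 ± 54.0 to 558 ± 20.6 (0.70, SE 0.0969, adjusted p = 1.06e-04). Ugt2b5 (chr5:87124960-87140318, minus strand) was 37.4, 19.2, 28.4 and 28.7 in Scr libraries and 96.7, 58.7, 65.8 and 66.9 in siCasp8 libraries. It rose without overlap, from 28.4 ± 7.44 to 72.0 ± 16.8 (1.32, SE 0.232, adjusted p = 6.53e-04).

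The Ugt2 coding sequences were 64.8% to 97.0% identical over 45 pairs, with a median of 71.5%. The share of 31-base words held by no other gene was 97.1% in Ugt2b34, 95.6% in Ugt2b35 and 88.0% in Ugt2b36. It was 43.6% in Ugt2b5, whose coding sequence was 97.0% identical to that of Ugt2b38 and 94.7% to that of Ugt2b37, so the level of Ugt2b5 is less certain. Ugt2b38 was listed at 0 in every Scr library and in siCasp8 replicate 1, and at 7.82, 7.69 and 3.11 in the others. Ugt2b37 ran from 0.855 to 7.04 over all 8 libraries. Ugt2b1 was 5.76, 14.7, 10.7 and 8.70 in Scr libraries and 13.2, 11.7, 8.56 and 5.44 in siCasp8 libraries. Ugt2a3 did not exceed 7.83, Ugt2a2 was above 0 in 1 library, and Ugt2a1 was listed at 0 in all. Of these, Ugt2b1 lay just under the filter with a mean of 9.85 over the 8 libraries and Ugt1a10 with 9.44, whereas Ugt1a2 passed it with 14.4 and Sult5a1 with 15.8.

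Outside these families, Ugt8a (chr3:125865271-125938619), which adds galactose to ceramide for the lipids of myelin, was 42.6 ± 7.18 in Scr and 37.6 ± 3.85 in siCasp8 libraries and was not called (log2 fold change -0.17, 95% interval -0.58 to 0.25, adjusted p = 0.526). Ugt3a1 (chr15:9276888-9315032) was too low to test, at 2.84, 8.93, 5.64 and 8.71 in Scr libraries and 9.11, 12.3, 12.5 and 11.5 in siCasp8 libraries. All 4 siCasp8 values of Ugt3a1 were above the controls. Ugt3a2 was listed at 0 in all libraries.

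Of the 4 tested Sult1 genes, which sulfate phenols, amines and thyroid hormones, 3 rose. Sult1c2 (chr17:53829637-53846339, minus strand) was 1320, 1527, 1649 and 1432 in Scr libraries and 2594, 2727, 2688 and 2457 in siCasp8 libraries. It rose from 1482 ± 139.6 to 2616 ± 120.3, 1.77-fold (log2 fold change 0.82, SE 0.0642, adjusted p = 1.08e-06), without overlap. Sult1c2 held most of the summed Sult level in both groups.

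Sult1d1 (chr5:87554645-87569027, minus strand), a sulfotransferase for catecholamines in the mouse, was 114, 134, 139 and 161 in Scr libraries and 339, 231, 382 and 239 in siCasp8 libraries. It rose from 137 ± 19.2 to 298 ± 74.7 (1.09, SE 0.167, adjusted p = 2.32e-04), with a wide spread among the siCasp8 libraries but no overlap. Sult1b1 (chr5:87513339-87538195, minus strand), which sulfates thyroid hormones and phenols, was 87.6, 67.5, 124 and 77.4 in Scr libraries and 184, 159.9, 138 and 171 in siCasp8 libraries. It rose from 89.2 ± 24.8 to 163 ± 19.5 (0.89, SE 0.177, adjusted p = 0.00155), with Scr replicate 3 close under the lowest siCasp8 library. With depth as a covariate Sult1b1 was at 0.84 with an adjusted p of 0.0639, so its call was lost there.

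Sult1a1 (chr7:126672865-126676432), the main phenol sulfotransferase of liver, was not called. It was 64.7, 92.4, 105 and 107 in Scr libraries and 105, 124, 102 and 131 in siCasp8 libraries, and the groups overlapped. Its log2 fold change was 0.34 (95% interval -0.04 to 0.71, adjusted p = 0.140). Sult1c1 was above 0 in 1 library, and Sult1e1, the estrogen sulfotransferase, was listed at 0 in all.

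Sult2b1 (chr7:45729983-45784669, minus strand), which sulfates cholesterol, was the 1 tested Sult2 gene. It was 124, 138, 103 and 112 in Scr libraries and 164, 163, 165 and 168 in siCasp8 libraries. It rose from 119 ± 15.2 to 165 ± 2.02 (0.47, SE 0.114, adjusted p = 0.00558), the smallest rise of the 14, and the siCasp8 libraries lay very close together. The Sult2a genes, hydroxysteroid and bile acid sulfotransferases of liver, were low: Sult2a1 to Sult2a6 were listed at 0 in all libraries and Sult2a8 did not exceed 3.26. Sult2a7 was 14.3, 2.95, 3.52 and 16.5 in Scr libraries and 4.43, 11.7, 5.10 and 14.9 in siCasp8 libraries, with no order between the groups.

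Neither tested gene of the remaining Sult families was called. Sult5a1 was 17.0 ± 2.01 in Scr and 14.7 ± 3.11 in siCasp8 libraries (log2 fold change -0.21, 95% interval -0.81 to 0.39, adjusted p = 0.582). Sult6b1 was 53.1 ± 8.80 and 58.6 ± 4.72 (0.15, 95% interval -0.21 to 0.51, adjusted p = 0.514). Neither was at an unadjusted p under 0.05 in limma's test (0 of 2). Sult4a1 was above 0 in 1 library, and Sult3a1, Sult3a2, Sult6b2 and the 6 pseudogenes were listed at 0 in all.

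Between genes, levels were compared per kb of the longest coding transcript. On that scale Sult1c2 was the most abundant member, with a mean level of 803 per kb in Scr and 1417 per kb in siCasp8 libraries. Ugt2b34 followed with 443 and 1179 per kb, Ugt1a6a with 428 and 818, Ugt1a6b with 378 and 731, and Ugt2b36 with 183 and 295. These 5 genes held the same order in both groups. The order rests on the length used, 1846 bases for Sult1c2 and 4312 for Ugt2b34, and which transcripts the cells made was not tested. Ugt1a9 moved from rank 10 to rank 6 of the 18, and Ugt2b35 from rank 12 to rank 7.

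The risen Ugt2 and Sult1 genes of chromosome 5 are neighbours. A stretch of 701.8 kb (chr5:86889767-87591594) holds 13 members: the 10 Ugt2 genes, Sult1b1, Sult1d1 and Sult1e1. All 6 tested members in it rose, by a median of 1.21 on the log2 scale, and its 15 other genes in the table were too low to test. The search for other genes covered 250 kb on either side, but the 2 that were tested both lie before the start of the stretch. Past its end no gene was high enough to test. Of the 2, limma called 0, and 1 was higher at an unadjusted p under 0.05. That gene, Tmprss11b, named after its values were seen, was 9.62 ± 6.51 in Scr and 20.2 ± 3.60 in siCasp8 libraries, and the groups overlapped. Its log2 fold change of 1.30 (adjusted p = 0.0649) was within the range of the cluster's tested members. Its Scr mean was under the filter of 10, so it was tested only through its siCasp8 level. The other, Ythdc1, was at -0.04 (adjusted p = 0.570). Within 250 kb of the Ugt1a locus, 6 other genes were tested, of which 3 were called higher and 1 lower, against 40.2% of all tested genes called in either direction. One of the 3 was Mroh2a, named after its values were seen, at a log2 fold change of 1.96 (adjusted p = 0.00105). Its level was low, 19.0 ± 13.2 in Scr and 69.9 ± 21.6 in siCasp8 libraries. The changes of the other flank genes were smaller: Usp40 at 0.24 and Spp2 at 0.45 were called higher and Hjurp at -0.16 lower. Sag at 0.37 and Dgkd at 0.02 were not called.

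**Figure D4:**
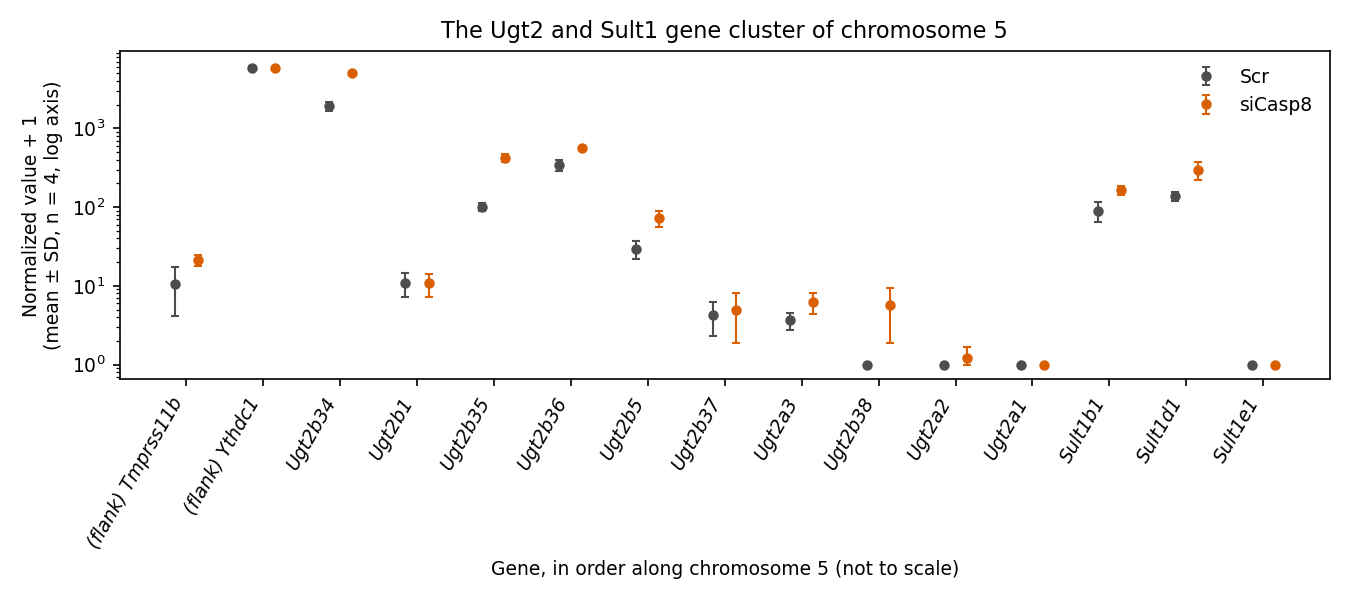
Normalized level plus 1, in the deposited unit on a log axis, of the 13 members of the chromosome 5 cluster and the 2 tested genes beside it, in their order along the chromosome (not to scale). Points are means of 4 Scr (grey) or 4 siCasp8 (orange) libraries and bars are the SD; the 6 tested members have siCasp8 means from 72.0 to 5083, and the other 7 have means of at most 9.97 in either group.

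The sequence around the start of transcription was searched in the RefSeq windows of the members (GRCm38.p6, 250 bases before to 50 after each start, both strands). Of the 14 risen genes 13 had a window, 15 windows in all, and Ugt1a6b had none. The core of the site of the aryl hydrocarbon receptor, GCGTG, was in 4 of the 15 windows, those of Sult1d1, 1 of 2 of Sult1b1 and both of Sult2b1, against 32.4% of all 32851 windows and 48.3% of those of tested genes. No window of a risen Ugt gene held these letters. The 150 bases before the start of Sult1d1 are shown because they hold the match nearest before a start among the risen genes. It is in capitals as CACGC, the core read on the other strand, and begins 47 bases before the start.
Sult1d1 (chr5:87569007-87569156, minus strand): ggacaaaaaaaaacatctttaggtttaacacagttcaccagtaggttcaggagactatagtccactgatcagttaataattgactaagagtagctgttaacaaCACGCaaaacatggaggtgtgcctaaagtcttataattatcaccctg

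The HNF4 sequence CAAAGTCCA was in 1 of the 2 windows of Sult1b1, where it begins 25 bases after the start, against 0.475% of all windows. The antioxidant response element TGACNNNGC (12.4% of all windows) and the DR1 repeat were in none of the 15. None of these motifs contains another. A match describes letters only, and a window without one says only that these letters are not in it.

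Other genes of the pathway were read from a list and set against all tested genes. The list held 46 symbols of cofactor supply, deconjugation, transport and regulation, chosen with earlier results of these data known. Impad1 and Bpnt2 are 2 symbols of 1 gene, which was in the table only as Bpnt2. Of the 46 symbols, 44 were in the table and 39 were tested. Of these, 14 rose, 8 fell and 17 were not called, where 19.4% of all tested genes were called higher and 20.8% lower. The share of the list that fell is thus near that of all genes, and the small counts for each role below are read against the same shares. The median over the 39 was 0.07 on the log2 scale. After rescaling to a common upper quartile, 24 were called higher and 3 lower.

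The 5 tested genes listed under UDP-glucuronate supply include Slc35a3, a carrier of UDP-N-acetylglucosamine, which was not called. Of the 5, 3 rose and none fell, also at an unadjusted p under 0.05 in limma's test (0 of 5). Ugp2, which makes UDP-glucose, rose from 4593 ± 159.8 to 6190 ± 307 (log2 fold change 0.43, adjusted p = 7.20e-06), in every siCasp8 library above every Scr library. Ugdh, the enzyme that oxidises UDP-glucose to the donor and is named here after its values were seen, was 12198 ± 739 and 11999 ± 540.1 and was not called (-0.02, adjusted p = 0.741). Of the 9 tested genes listed under PAPS supply and breakdown, 2 rose and 3 fell. The 9 include Tpst1 and Tpst2, enzymes that use PAPS, and Tpst1 was 1 of the 3 that fell (-0.28, adjusted p = 0.0339). Slc26a2, a sulfate transporter, rose from 4969 ± 26.1 to 6459 ± 180.2 (0.38, adjusted p = 2.28e-06). Bpnt2, a Golgi phosphatase for the spent donor, fell from 6001 ± 242 to 5190 ± 287 (-0.21, adjusted p = 0.00259). That call was lost after upper quartile rescaling (-0.11, adjusted p = 0.0804) and with depth as a covariate (adjusted p = 0.0761). Named after their values were seen, Bpnt1 rose from 3119 ± 158 to 3689 ± 108 without overlap (0.24, adjusted p = 7.13e-04) and Slc35b2 fell (-0.26, adjusted p = 0.00496). Papss1 (-0.05, adjusted p = 0.436) and Papss2 (0.22, adjusted p = 0.0812) were not called.

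Among genes listed under deconjugation 1 rose and 1 fell of 4 tested, and both are lysosomal sulfatases. The steroid sulfatase gene Sts was not in the table, and removal of the products of Ugt or Sult enzymes was not measured. Arsa rose from 4018 ± 191 to 6097 ± 205 (0.60, adjusted p = 4.26e-07), and Arsb fell from 1539 ± 42.4 to 1147 ± 8.91 (-0.42, adjusted p = 8.05e-06). Of the 6 tested transporters, 2 rose and 2 fell. Abcc2, the pump that moves glucuronides and sulfates into bile, was 3059, 2743, 3231 and 3153 in Scr libraries and 8041, 6989, 6684 and 6964 in siCasp8 libraries. It rose from 3047 ± 214 to 7170 ± 597 (1.23, adjusted p = 4.03e-08), the smallest adjusted p of the list. Abcc1, an export pump of the basolateral membrane, fell from 2977 ± 22.7 to 2512 ± 106 (-0.25, adjusted p = 3.52e-04). The other tested transporters are named after their values were seen. Abcc3 rose from 9793 ± 416 to 12530 ± 335 (0.36, adjusted p = 1.18e-05), with no overlap. Abcg2 fell (-0.20, adjusted p = 0.0120), and Abcc4 (0.03, adjusted p = 0.582) and Abcc5 (0.07, adjusted p = 0.482) were not called. Slco1b2, an uptake carrier of hepatocytes, was listed at 0 in all libraries.

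Of the 15 tested regulators, 6 rose and 2 fell. Among the 6, named after their values were seen, were Cebpa (0.40, adjusted p = 2.71e-04) and Nr1i2 (0.46, adjusted p = 0.0205). Arnt (0.17, adjusted p = 0.00290), Rxra (0.19, adjusted p = 0.0162) and Nfe2l2 (0.10, adjusted p = 0.0280) also rose. Ahr, the gene of the aryl hydrocarbon receptor, was not called (0.08, adjusted p = 0.205). Foxa1, a pioneer factor of liver genes, was 1699, 1718, 1712 and 1778 in Scr libraries and 992, 1146, 1174 and 1166 in siCasp8 libraries. It fell from 1726 ± 35.0 to 1119 ± 85.9 (-0.63, adjusted p = 3.66e-06).

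**Figure D5:**
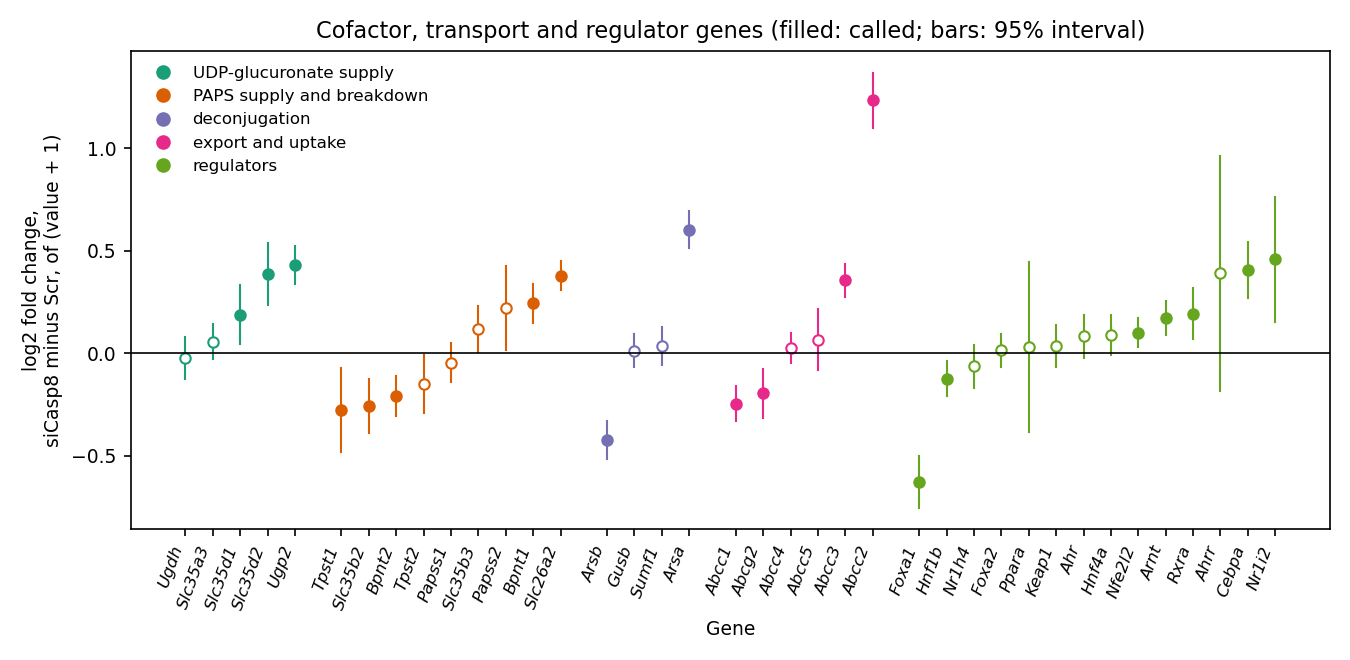
Log2 fold change (siCasp8 minus Scr) with its 95% confidence interval from limma of the 39 tested genes of cofactor supply, deconjugation, transport and regulation, coloured by role, with filled points for called genes and 1 regulator left out. Abcc2 at 1.23 is the largest rise and Foxa1 at -0.63 the largest fall.

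The labelled cell type was checked against markers. Of 10 hepatocyte markers 9 were matched in the table and 6 were tested: 3 rose and 1 fell, and Cyp2e1, Cps1 and Asgr1 had means under 10. The 9 summed to 39748 to 43551 in Scr libraries and 46108 to 49482 in siCasp8 libraries. Alb, the gene of albumin, rose from 86.4 ± 10.7 to 3626 ± 249. Ttr and Serpina1a also rose. Apob, the most abundant of these markers, fell from a mean of 26046 to 21951 (adjusted p = 0.00277), and Hnf4a and Apoa1 were not called. Among 6 cholangiocyte markers 5 were tested, of which 1 rose and 3 fell, and they summed to 29403 to 31594 and 27832 to 30046. Among 6 macrophage markers 3 were tested, 1 fell, and Adgre1, Clec4f and Cd5l were listed at 0. Their sums were 779 to 848 and 578 to 654. The 6 stellate cell or fibroblast markers summed to 116 to 166 and 94.2 to 169, with 2 tested, of which Des rose and Col1a1 fell. The 5 endothelial markers summed to 185 to 536 and 178 to 300.2, with 1 tested and not called, and Cdh5 and Lyve1 at 0. The part of these markers in the changes of the Ugt and Sult genes was not tested, and in bulk RNA fewer cells of a type and less RNA per cell cannot be told apart.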

How the data were processed

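The members, the lists and the alternatives were chosen with earlier results of these data known. Poly-A RNA of 8 AML12 libraries (4 Scr, 4 siCasp8) was grouped by the titles in the labels. The authors deposited 1 table that, per its name, holds kallisto estimates normalized with DESeq2, a non-negative signal for each gene symbol. The builds GRCm38 and GRCh38 and the tools DESeq2, sleuth, kallisto 0.44.0 and bcl2fastq 2.19 are listed in the submitters' processing notes, with no role or order. The annotation and the summing of transcripts to genes are not given in the sources used here. A line with no symbol held 0.0481% to 0.0631% of each library and was left out. Totals were 44.1 to 45.6 M per library and carry no depth, so depth was estimated from the value of 1 read (0.776 to 1.47). Only 65.6% to 75.0% of low values lay within 0.1 read of a whole number, so no count model was used.

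Genes with a mean of at least 10 over the 8 libraries (14154) were tested on log2(level + 1) with limma 3.58.1 in R 4.3.3, siCasp8 minus Scr, letting the prior variance follow the mean level and adding no covariate. P-values were two-sided and adjusted by Benjamini-Hochberg across all 14154 genes, and a gene was called higher (rose) or lower (fell) at an adjusted p under 0.05. The log2 fold change understates the change of low genes. The test was also run on simulated data in which 200 of 14154 genes were changed, up and down equally often. There it called 88% of the genes given a log2 change of 1 and 73% of those given 0.5, and 6.40% of its calls were false. The changed genes left out those with the lowest means, and in the real data 40.2% of genes were called. These rates may therefore not hold for the real comparison or for members with low levels. Values are mean ± SD over 4 libraries.

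Per-library values are given for the called members and for tested members with a library at 100 or more. The other tested members are given by mean, and those under the filter by name where any library reached 10. Of the pathway list, the text names the 4 genes called higher and the 4 called lower that had the smallest adjusted p. Other genes of the list were named with their values known. Promoters are from RefSeq (GRCm38.p6) and other positions and coding sequences from GENCODE vM21 (GRCm38). Alternatives were other pseudocounts, filters, scalings and covariates, limma without the trend, a replicate block, and leaving out each library. A comparison of proteins that had been planned was replaced by one of coding sequences. One regulator and its motif are left unreported, but the list's counts include that gene.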

Additional observations from a re-analysis of the deposited data

Results flagged for a closer look

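The groups of 4 libraries looked at numbered 54. They were Casp8, the 18 tested members and the 8 pathway genes named for the smallest adjusted p, in Scr and in siCasp8. In 4 of the 54, 1 library lay far from the other 3. Its gap to the nearest, divided by the group's range, was above Dixon's 95% critical value. Chance gives about 1 such group in 20. Ugt1a6b in siCasp8 replicate 1 was 1930.55, against 1593 to 1613 in the other siCasp8 libraries. Ugt1a9 in siCasp8 replicate 1 was 500.579, against 342 to 345. Foxa1 in siCasp8 replicate 1 was 991.733, against 1146 to 1174. Ugt2b36 in Scr replicate 1 was 425.909, against 315 to 322 in the other Scr libraries. Each of the 3 enzyme genes was still called in every fit that left out 1 library.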

How the results depend on the processing

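Of the 14 risen members, 12 were called under all 18 alternatives, and the 4 tested members that were not called stayed so wherever they were tested. Sult1b1 lost its call with depth as a covariate (0.84, adjusted p = 0.0639). Ugt1a2 lost it with that covariate (2.04), without siCasp8 replicate 2 (1.39) and without siCasp8 replicate 4 (1.45). Members called higher numbered 12 with depth as a covariate, 13 of 15 at a mean of at least 50, 16 of 30 without a filter (adding Ugt1a10 and Ugt2b38), and 13 to 14 when 1 library was left out; none was called lower under any alternative. Sult1a1 turned to -0.042 with depth as a covariate (adjusted p = 0.929) and Sult6b1 to -0.00085 with quantile normalization (adjusted p = 0.998), and neither was called in any fit. Over all genes, 4471 were called higher and 1665 lower after upper quartile rescaling, 1302 and 1491 with depth as a covariate, and 2264 to 2751 and 2536 to 2968 when 1 library was left out. On the pathway list, 24 were higher and 3 lower after upper quartile rescaling, 3 were lower with depth as a covariate, and 12 to 14 were higher and 6 to 9 lower when 1 library was left out. The cause of these shifts was not tested.

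The labels give both groups the same replicate numbers, but libraries of 1 number deviated together only weakly (correlations 0.0785, 0.0442, 0.169 and 0.0554), although each Scr library correlated best with its own number (4 of 4). With a replicate block 2868 genes were called higher and 3152 lower, 14 members were higher and none lower, and no call on a member changed. Members at a level of a few reads rest on little depth: without a filter Ugt2b38 had an adjusted p of 0.0213, although it was listed at 0 in every Scr library, and Ugt2a3 one of 0.181.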
